A study of Homo sapiens with 6 samples.

Results

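The BCL2 family regulators of apoptosis were followed in 786-O cells, an established human clear cell renal cell carcinoma line without functional VHL, after stable knockdown of YB1, the Y-box binding protein encoded by YBX1. Members were 10 genes chosen by symbol: the pro-survival genes BCL2, BCL2L1, MCL1 and BCL2A1, the pore-forming effector BAK1, and the BH3-only genes BID, BAD, BIK, BCL2L11 and PMAIP1. All 10 had a row among the 20030 genes with mRNA sequencing values. There were 3 libraries of 786-O-sh-YB1 cells (here shYB1), which carried a lentiviral shRNA against YB1, and 3 libraries of 786-O-sh-vector cells (here vector), which carried the same vector with a scrambled shRNA; both were stable, puromycin-selected derivatives of the same line, labelled as passages 16 to 18. Only 1 shRNA label was given for the knockdown, while the series text speaks of several shRNAs. Whether the 3 shYB1 libraries share 1 shRNA is therefore not known, and they were treated as 1 group. The results describe these derivatives only. Nothing said that the libraries of a group came from separate cultures: p-values measure the spread between these libraries, which may be technical.

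Members of this family set the threshold of the mitochondrial route to apoptosis. BAK1 and its relative BAX open pores in the outer mitochondrial membrane and let cytochrome c out. The pro-survival proteins hold them in check, and the BH3-only proteins, which rise under stress or damage, bind the pro-survival proteins or activate the effectors directly. The family was read here at the mRNA level, while MCL1 and several BH3-only proteins are also controlled by rapid protein turnover and by phosphorylation, which mRNA does not show.

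Values are FPKM (fragments per kilobase of transcript, relative to all mapped fragments of the library), a level per transcript length, so levels of different genes could be set side by side. Totals of FPKM ran from 282736 to 295887 per library, and relative depth, read from the spacing of the lowest values, from 0.979 to 1.10 times that of shYB1 replicate 1. YBX1 itself fell from 367, 373 and 378 FPKM with vector to 167, 166 and 173 FPKM with shYB1 (log2 fold change -1.14, limma adjusted p = 1.53e-08). All 8 markers of a renal carcinoma line reached 1 FPKM, with sums of 1882 to 1982 FPKM in vector and 1891 to 1923 FPKM in shYB1 libraries. None of the 10 leukocyte, endothelial and erythroid markers reached 1 FPKM in any library: sums stayed at or under 0.609, 0.475 and 0.0654 FPKM, and PTPRC, the pan-leukocyte marker, was at or near 0. In a bulk sample, fewer cells of a type and less RNA per cell cannot be told apart.

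Knockdown of YB1 went with a small shift inside the family. MCL1, by far the most abundant member, fell by 0.25 on the log2 scale, while BCL2L1, BCL2, BAK1 and PMAIP1 rose by 0.21 to 0.45. BAD, BID and BCL2L11 did not pass the test, and BIK and BCL2A1 lay under 1 FPKM in every library. Differences here are log2 fold changes of log2(FPKM + 0.1), shYB1 minus vector, tested with limma for the 10439 genes whose mean over all libraries reached 1 FPKM, with Benjamini-Hochberg adjustment over all of them and a call at an adjusted p under 0.05. Of the 8 members tested, 4 were called higher, beside 18.7% of all genes tested, and 1 lower, beside 6.93%; in either direction the 5 called members stand beside 25.7% of all genes. The groups did not overlap in 5 of the 8, beside 42.6% of all genes: shYB1 lay wholly above vector in 4, beside 30.1%, and wholly below in 1, beside 12.5%. With 8 genes these shares are coarse. The median log2 fold change was 0.18 over the 8 and 0.06 over all genes tested, and no member reached a 2-fold change.

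Rescaling the libraries by 1 factor each moved all genes about alike. Of the genes called, 73.0% were higher in shYB1 with FPKM as deposited and 48.8% after median-of-ratios rescaling, which brought the median change over all genes from 0.06 to 0.000897 on the log2 scale. The members moved with it, MCL1 to -0.30, BCL2L1 to 0.15, PMAIP1 to 0.16, and BCL2 and BAK1 both to 0.39. After that rescaling the same 4 members were called higher, beside 11.4% of all genes, and MCL1 lower, beside 12.0%. Quantile normalization, which is not 1 factor per library, gave -0.20 for MCL1, 0.18 for BCL2L1 and for PMAIP1, 0.40 for BCL2 and 0.38 for BAK1. Against FPKM as deposited it thus moved MCL1 up and the other 4 down. Each of the 5 calls held under every alternative in which the gene was tested.

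**Figure D1:**
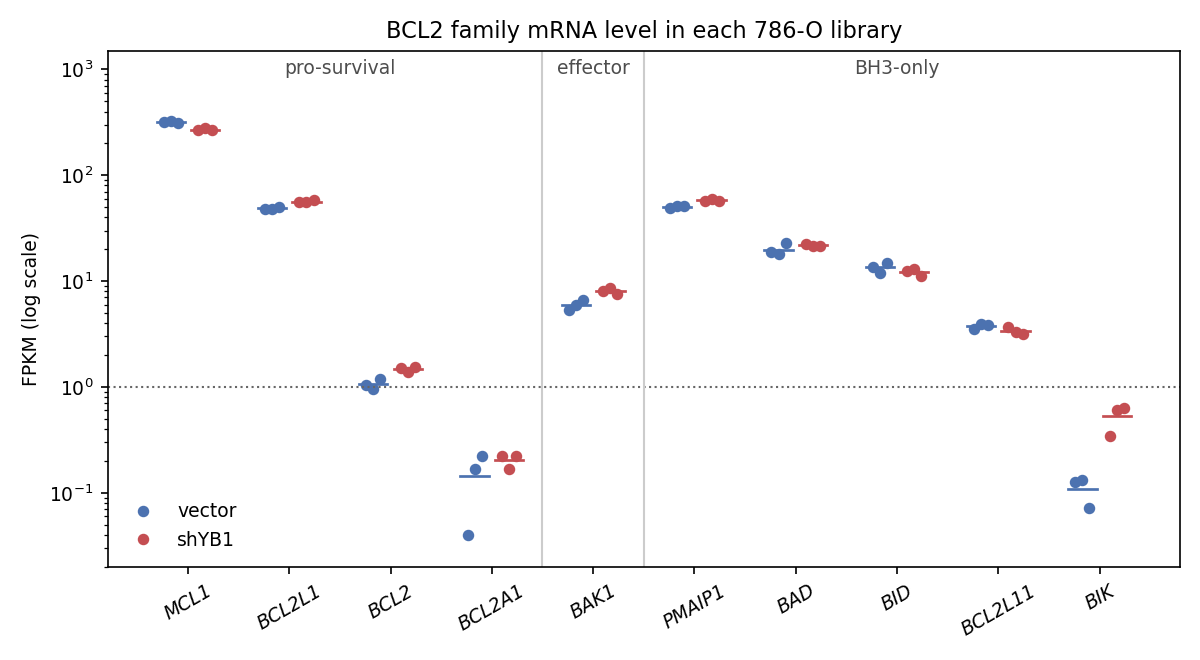
Level of each member in each of the 6 libraries, in FPKM on a log axis, with vector libraries in blue, shYB1 libraries in red and a bar at each group's mean; the dotted line marks 1 FPKM. MCL1 lies above every other member in both groups, and BCL2A1 and BIK lie under the line in all libraries.

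Levels ran from 0.0402 FPKM, for BCL2A1 in a vector library, to 328 FPKM, for MCL1 in another, and their order was nearly the same in both groups. MCL1 ranked 127 of the 20030 genes by mean FPKM in vector and 147 in shYB1 cells. PMAIP1 and BCL2L1 followed with overlapping values in both groups, then BAD, BID, BAK1, BCL2L11 and BCL2. At the bottom, BCL2A1 and BIK overlapped in vector libraries, whereas in shYB1 libraries every BIK value lay above every BCL2A1 value.

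Upstream sequences of 3 of the 4 members that rose are shown because YB1 is named for binding the Y-box, an inverted CCAAT element of promoters. Each run is the 250 bases before the annotated start in RefSeq (GRCh38.p14), 5′ to 3′ on the gene's strand, with the 5 letters ATTGG, or CCAAT on the other strand, in capitals. The windows are chr6:33580277-33580526 for BAK1, chr20:31723964-31724213 for the first of 2 starts of BCL2L1 (both minus strand) and chr18:59899746-59899995 for PMAIP1 (plus strand).
BAK1: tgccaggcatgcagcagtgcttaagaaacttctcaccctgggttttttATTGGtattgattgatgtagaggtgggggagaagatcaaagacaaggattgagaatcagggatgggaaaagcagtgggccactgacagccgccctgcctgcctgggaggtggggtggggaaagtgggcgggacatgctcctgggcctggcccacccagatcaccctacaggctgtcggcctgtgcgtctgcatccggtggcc
BCL2L1: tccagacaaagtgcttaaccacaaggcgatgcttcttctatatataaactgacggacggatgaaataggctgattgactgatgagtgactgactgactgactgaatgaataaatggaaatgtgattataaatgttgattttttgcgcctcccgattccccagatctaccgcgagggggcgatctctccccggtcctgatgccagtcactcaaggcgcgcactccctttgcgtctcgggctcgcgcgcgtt
PMAIP1: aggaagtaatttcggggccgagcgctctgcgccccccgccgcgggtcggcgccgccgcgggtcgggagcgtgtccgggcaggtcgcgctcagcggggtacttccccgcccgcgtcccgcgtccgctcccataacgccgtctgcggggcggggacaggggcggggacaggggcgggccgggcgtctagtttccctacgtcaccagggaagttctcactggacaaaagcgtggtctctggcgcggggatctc

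The BCL2 window lies inside the annotated limits of the gene, before an internal start, and is not shown. Of the 4 members that rose only BAK1 held the letters, as ATTGG from 202 to 198 bases before its start. No window was on hand for MCL1 or BIK, so neither was searched. The other 8 members had 14 windows in all counting alternative starts, 7 of them wholly or partly inside the gene's own limits. A match was held by 4 windows in 3 members: BAK1, BCL2L11 (58 to 54 bases before its start) and BAD, whose 2 overlapping windows held the same site. Of all 35116 such windows, 32.0% held the letters on either strand. A match is a description of the sequence and not a binding site.

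Among the pro-survival genes, MCL1 carried most of the message and moved down, while BCL2L1 and BCL2 moved up. MCL1 (chromosome 1, 150574558 to 150579610; all gene positions are those of RefSeq on GRCh38.p14) encodes a short-lived protein that sequesters BAK1 and is bound by the PMAIP1 product NOXA. It stood at 321, 328 and 311 FPKM in vector replicates 1, 2 and 3 and at 266, 277 and 266 FPKM in shYB1 replicates 1, 2 and 3. Every shYB1 library lay below every vector library. The difference amounted to a log2 fold change of -0.25 (SE 0.033, 95% CI -0.32 to -0.17, limma adjusted p = 0.000639). Its annotated exons overlap ADAMTSL4-AS1 on the same strand, although none of its 50-base transcript words occurs in another gene.

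BCL2L1 (chromosome 20, 31664452 to 31723963) encodes BCL-XL, the long-lived pro-survival protein that also restrains BAK1. It read 48.4, 47.8 and 50.2 FPKM in vector and 56.1, 55.4 and 57.9 FPKM in shYB1 libraries. The groups did not overlap, and the gap between them was larger than the spread within either, with a log2 fold change of 0.21 (SE 0.035, 95% CI 0.13 to 0.29, limma adjusted p = 0.00217). Of its 50-base words, 37.4% also occur in ABALON, an antisense gene, and whether counting used strand is not given in the sources used here, so reads of the pair cannot be separated.

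BCL2 (chromosome 18, 63123346 to 63320090), the founding member and the target of venetoclax in blood cancers, was a minor transcript in these kidney cells. It read 1.05, 0.955 and 1.19 FPKM in vector and 1.5, 1.39 and 1.54 FPKM in shYB1 libraries. No vector value reached the lowest shYB1 value. The log2 fold change was 0.44 (SE 0.11, 95% CI 0.20 to 0.68, limma adjusted p = 0.0137), at a level close to the 1-FPKM limit of the test. BCL2A1 (chromosome 15, 79960892 to 79971196), an NF-kB-driven relative found mainly in blood cells, stood at 0.0402, 0.169 and 0.224 FPKM in vector and 0.221, 0.166 and 0.222 FPKM in shYB1 libraries. If the lowest library is taken as 1 fragment, which was assumed and not measured, these are about 1, 4 and 5 fragments against 5, 4 and 5. On these assumed counts the depth-adjusted ratio was 1.44. Its exact 95% interval of 0.594 to 3.62 covers counting error only, and its width depends on the assumption. The groups overlapped, and the fit with no filter on low values gave no call (limma adjusted p = 0.464).

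Summed over the 4 pro-survival genes, FPKM was 370 ± 7.36 (SD, n = 3) in vector and 328 ± 5.37 (SD, n = 3) in shYB1 libraries, with no overlap. Relatives outside the members are not in this sum, among them BCL2L2, at 9.23 FPKM in vector and 9.59 FPKM in shYB1 libraries (limma adjusted p = 0.493). The composition of the sum moved as well. MCL1 made up 86.5% ± 0.644 of the sum in vector and 82.3% ± 0.639 in shYB1 libraries. BCL2L1 went from 13.2% ± 0.593 to 17.2% ± 0.598, and BCL2 from 0.288% ± 0.0378 to 0.451% ± 0.0312 (SD, n = 3 each). None of these 3 shares overlapped between groups. That separation follows from the changes already given for the 3 genes and is not separate evidence. The shares of MCL1 and BCL2L1 nearly fill the sum, so a fall of the first is a rise of the second. Shares within a library do not depend on a scaling by 1 factor per library.

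BAK1 was the only pore-forming effector among the members, and its mRNA rose. BAK1 (chromosome 6, 33572552 to 33580276) sits in the outer mitochondrial membrane and forms pores once released from MCL1 and BCL-XL. It read 5.30, 5.91 and 6.59 FPKM in vector and 8.14, 8.54 and 7.6 FPKM in shYB1 libraries. The groups did not overlap, although the vector libraries were more spread out than those of MCL1 or BCL2L1. The log2 fold change was 0.45 (SE 0.080, 95% CI 0.27 to 0.62, limma adjusted p = 0.00312). A share of 14.0% of its 50-base words also occurs in the pseudogene BAK1P1 or the overlapping GGNBP1, so part of its value is uncertain.

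**Figure D2:**
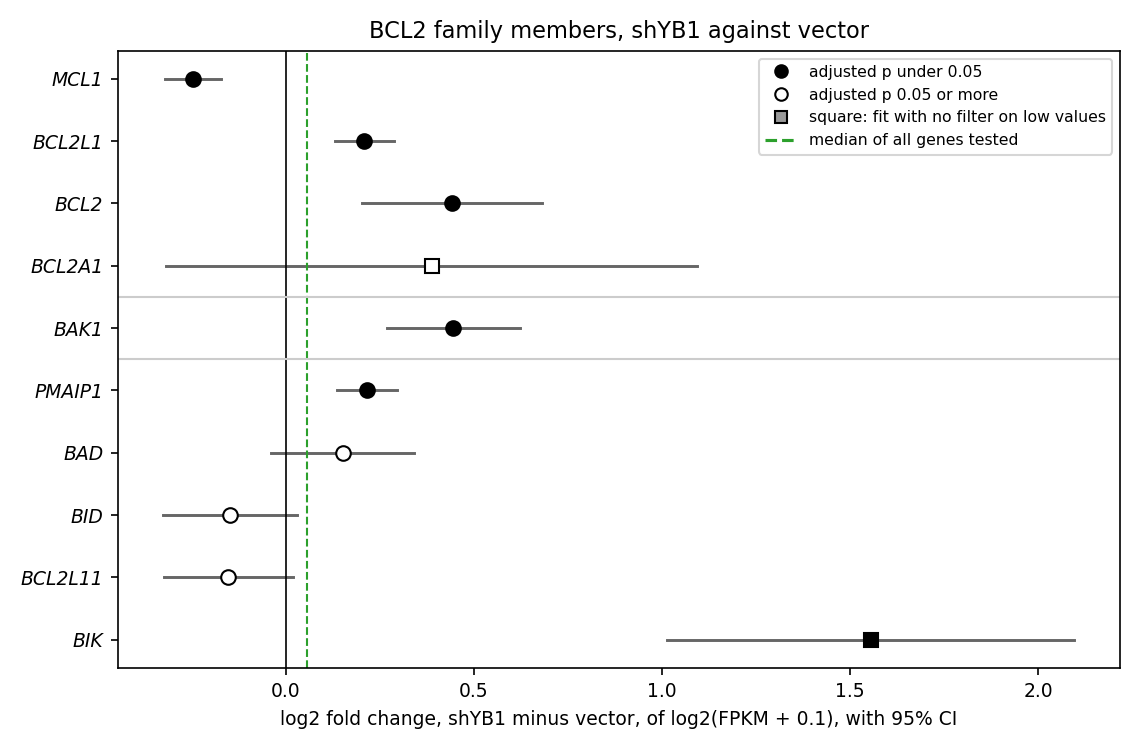
Log2 fold change of each member, shYB1 minus vector, of log2(FPKM + 0.1), with its 95% confidence interval; filled symbols passed an adjusted p of 0.05, squares come from the fit with no filter on low values, and the dashed line is the median of all genes tested. MCL1 is the only filled symbol left of 0, at -0.25, and BIK, at 1.55, has a wide interval.

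Of the BH3-only genes, PMAIP1 was the most abundant and the only one of 4 tested that passed. PMAIP1 (chromosome 18, 59899996 to 59904305) encodes NOXA, which binds MCL1 and promotes its degradation. It read 48.5, 50.8 and 51.2 FPKM in vector and 57.3, 59.9 and 57.7 FPKM in shYB1 libraries. All shYB1 values lay above all vector values, at a log2 fold change of 0.22 (SE 0.036, 95% CI 0.14 to 0.30, limma adjusted p = 0.00204).

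BAD (chromosome 11, 64269828 to 64284704), a BH3-only protein held inactive by survival kinases such as AKT, read 18.6, 17.9 and 23.1 FPKM in vector and 22.6, 21.6 and 21.6 FPKM in shYB1 libraries. Vector replicate 3 lay above all shYB1 libraries and the other vector libraries below them. The log2 fold change was 0.15 (95% CI -0.04 to 0.34, limma adjusted p = 0.219), and without vector replicate 3 it was 0.26 (limma adjusted p = 0.00338). BAD shares exons with GPR137 on the other strand (16.2% of its 50-base words), and GPR137 stood at 6.90 FPKM in vector and 6.69 FPKM in shYB1 cells (log2 fold change -0.04, limma adjusted p = 0.597).

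BID (chromosome 22, 17734138 to 17774665), which caspase-8 cleaves to link death receptors to mitochondria, read 13.7, 12.0 and 14.9 FPKM in vector and 12.3, 12.9 and 11.3 FPKM in shYB1 libraries. Vector replicate 2 lay among the shYB1 values. On the log2 scale the difference was -0.15 (95% CI -0.33 to 0.03, limma adjusted p = 0.202), and without vector replicate 2 it was -0.23 (limma adjusted p = 0.0433). BCL2L11 (chromosome 2, 111120914 to 111168445) encodes BIM, a strong activator of BAK1 and BAX that FOXO factors induce. It read 3.56, 3.92 and 3.82 FPKM in vector and 3.67, 3.33 and 3.14 FPKM in shYB1 libraries, and shYB1 replicate 1 lay within the vector values. The log2 fold change was -0.15 (95% CI -0.32 to 0.02, limma adjusted p = 0.172), and 9.63% of its 50-base words also occur in the overlapping MIR4435-2HG.

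BIK (chromosome 22, 43110750 to 43129712), a BH3-only protein of the endoplasmic reticulum, had the largest fold of the 10 members at a very low level. It read 0.125, 0.132 and 0.0717 FPKM in vector and 0.344, 0.601 and 0.632 FPKM in shYB1 libraries, and the groups did not overlap. With relative depth from the spacing of low values, and the lowest library assumed to hold 1 fragment, these are about 2, 2 and 1 fragments against 5, 9 and 9. Each lies within 0.169 of a whole number, but multiples of these counts were not excluded. On these assumed counts, the depth-adjusted ratio of the 23 to the 5 fragments was 4.72. Its exact 95% interval of 1.76 to 15.9 covers counting error only, and its width depends on the assumption. BIK lay below the 1-FPKM limit; in the fit with no such limit over 15988 genes, where 9.89% were called higher, its log2 fold change was 1.55 (limma adjusted p = 0.0070). That size depends on the amount added before taking logs: it was 0.45 with 1 FPKM and 2.16 with 0.01 FPKM, over a range of limma adjusted p from 0.00537 to 0.0309 in the 9 alternatives run for BIK.

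The BH3-only sum was 87.4 ± 4.89 FPKM in vector and 96.3 ± 2.06 FPKM in shYB1 libraries (SD, n = 3), without overlap, the closest pair being 93.1 and 94.3 FPKM. That separation was lost after median-of-ratios rescaling, with 87.4, 86.0 and 93.7 against 94.6, 96.2 and 92.5, while the rescaled pro-survival sums still did not overlap. PMAIP1 held 57.5% ± 2.45 of it in vector and 60.5% ± 0.857 in shYB1 libraries, and these shares overlapped. The share of BID went from 15.5% ± 1.11 to 12.6% ± 0.612 and that of BCL2L11 from 4.31% ± 0.277 to 3.51% ± 0.264, both without overlap. By FPKM, BID and BCL2L11 overlapped between groups and were not called (limma adjusted p = 0.202 and 0.172). The sum they are divided by is mostly PMAIP1, which was called higher, and no share over all genes was computed. The pro-survival sum was 4.25 ± 0.304 times the BH3-only sum in vector and 3.41 ± 0.0476 times in shYB1 libraries. Both sums cover the members only and leave out relatives such as BBC3, at 3.39 FPKM in vector and 3.60 FPKM in shYB1 libraries.

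Ratios between members were read within each library, so that a scaling by 1 factor per library drops out. MCL1 over PMAIP1 was 6.62, 6.47 and 6.07 in vector and 4.64, 4.63 and 4.62 in shYB1 libraries. MCL1 over BCL2L1 was 6.57 ± 0.339 and 4.79 ± 0.205, and MCL1 over BAK1 was 54.5 ± 6.75 and 33.4 ± 1.44 (SD, n = 3 each). These 3 ratios were lower in every shYB1 library than in any vector library, and since they set the member that fell against members called higher, that separation follows from the changes already given. Over the 6 effector and BH3-only members as denominators, MCL1 ratios did not overlap for 4 (BAK1, PMAIP1, BAD and BIK) and overlapped for 2. No share over all genes as denominators was computed beside this count. MCL1 by itself did not overlap between groups, whereas BAD by itself overlapped and was not called (limma adjusted p = 0.219). MCL1 over BID was 23.5, 27.3 and 20.9 in vector and 21.6, 21.4 and 23.6 in shYB1 libraries, and MCL1 over BCL2L11 was 90.3, 83.8 and 81.3 against 72.5, 83.2 and 84.8. BCL2L1 over BAK1 went from 8.28 ± 0.774 to 7.0 ± 0.576, where the closest libraries all but touched, at 7.622 and 7.620. For a single ratio 3 libraries against 3 allow no exact permutation p under 0.1, so these are given as descriptions, and a ratio of mRNA is not a ratio of protein.

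**Figure D3:**
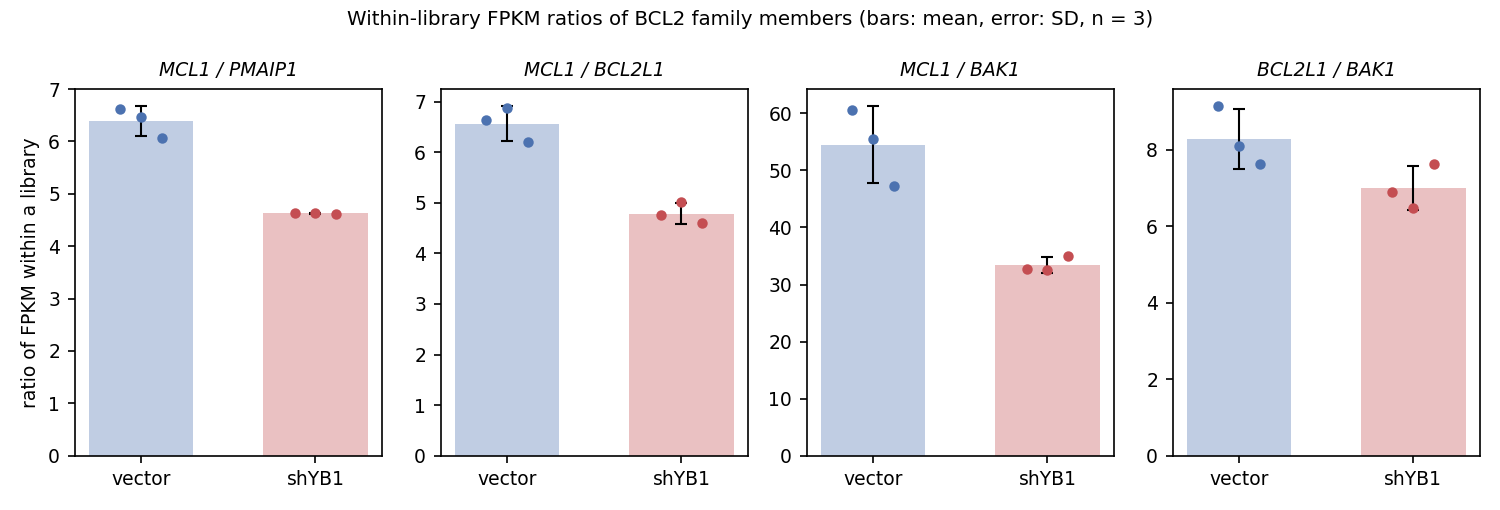
Ratio of FPKM between pairs of members within each library, with points for libraries, bars for group means and error bars for the SD (n = 3 per group); each panel has its own axis from 0. The shYB1 points for MCL1 over PMAIP1 sit between 4.62 and 4.64, under the vector points at 6.07 to 6.62, while those for BCL2L1 over BAK1 nearly reach the vector points.

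Annotation in the same table tied the members together only in part. The KEGG pathway Apoptosis was attached to 9 of the 10 (BIK was without it), Platinum drug resistance to 6 and PI3K-Akt signaling to 5. Platinum drug resistance was attached to all 4 members that rose and to BID and BAD, but not to MCL1, whereas MCL1 and BCL2L1, with opposite signs, both carried Apoptosis, PI3K-Akt signaling and Jak-STAT signaling.

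Of 13 other BCL2 relatives, 10 were tested and 3 were called higher, beside 18.7% of all genes, and 0 lower, beside 6.93% (5 and 1 at an unadjusted limma p under 0.05; 2 and 1 called after median-of-ratios rescaling, beside 11.4% and 12.0%). With 10 genes the called shares lie near the background. For counts at an unadjusted p, here and in the lists below, no share of all genes was computed. BCL2L12, an atypical relative, rose from 3.92 ± 0.248 to 4.75 ± 0.0941 FPKM (limma adjusted p = 0.0128). BOK, a BAX-like effector, rose from 6.57 ± 0.365 to 7.91 ± 0.448 FPKM (limma adjusted p = 0.0125). BNIP3L, a mitophagy receptor, was called at a log2 fold change of 0.11 (limma adjusted p = 0.0397) but lost the call in 10 of 15 alternatives, among them the leaving out of any library except shYB1 replicate 3. BNIP3, its hypoxia-induced relative and the most abundant of the list, stood at 66.9 ± 3.15 and 71.6 ± 2.82 FPKM (limma adjusted p = 0.124). BAX, the partner of BAK1, stood at 19.8 ± 1.81 and 22.8 ± 1.51 FPKM without overlap (limma adjusted p = 0.0601), and BBC3, which encodes the BH3-only protein PUMA, at 3.39 ± 0.0837 and 3.60 ± 0.251 FPKM (limma adjusted p = 0.417). The median of the list was 0.09, beside 0.06 for all genes.

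All 13 genes of the mitochondrial pore, apoptosome and caspases were tested, with 4 called higher, beside 18.7% of all genes, and 0 lower, beside 6.93%. At an unadjusted limma p under 0.05 there were 4 and 1. After median-of-ratios rescaling 4 and 1 were called, beside 11.4% and 12.0% of all genes. Other mitochondrial proteins of the list, VDAC3, DIABLO, HTRA2 and ENDOG, were not called, at log2 fold changes of 0.06, -0.002, 0.12 and 0.17. AIFM1, the apoptosis-inducing flavoprotein, rose from 9.15 ± 0.563 to 11.4 ± 0.647 FPKM (limma adjusted p = 0.00465). VDAC1 and VDAC2, channels of the outer membrane, rose by 0.21 and 0.22 on the log2 scale (limma adjusted p = 0.000842 and 0.00742), VDAC1 from 71.9 ± 0.141 to 83.3 ± 1.04 FPKM. CYCS, cytochrome c itself, rose from 14.2 ± 0.0723 to 16.3 ± 0.731 FPKM (limma adjusted p = 0.0105). The median of the list was 0.06, the same as for all genes to this precision.

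The inhibitors of apoptosis proteins, which restrain caspases, held the largest change of all the lists. Of 7 genes 5 were tested, 1 was lower and 1 higher, beside 6.93% and 18.7% of all genes, with a median of 0.10. BIRC3, which encodes the NF-kB-induced cIAP2, fell from 27.5, 28.5 and 27.9 FPKM in vector to 13.7, 13.2 and 12.3 FPKM in shYB1 libraries, a log2 fold change of -1.09 (limma adjusted p = 4.74e-07). Its closest relative, BIRC2, stood at 15.3 FPKM in both groups. BIRC5, which encodes the mitotic protein survivin, rose from 36.6 ± 0.703 to 41.3 ± 1.41 FPKM (limma adjusted p = 0.00787).

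The death receptor arm, the route that reaches BID through caspase-8, had 13 of 15 genes tested, with 5 lower and 0 higher (5 and 1 at an unadjusted limma p under 0.05; 5 and 0 called after median-of-ratios rescaling) and a median of -0.09. Beside these counts stand 6.93% lower and 18.7% higher of all genes tested (12.0% and 11.4% after the rescaling). TNFRSF10D, a decoy receptor for TRAIL, fell from 14.5 ± 0.687 to 9.87 ± 0.193 FPKM (limma adjusted p = 5.35e-05). TNFSF10, which encodes TRAIL, fell from 103 ± 2.09 to 83.6 ± 0.655 FPKM (limma adjusted p = 0.000107). TNFRSF10B, a TRAIL receptor that signals death, stood at 35.0 FPKM in both groups. TNF, the cytokine, fell from 4.52 ± 1.12 to 2.74 ± 0.174 FPKM (log2 fold change -0.67, limma adjusted p = 0.0149), TNFRSF1A, its receptor and the most abundant of the list, fell from 139 ± 5.41 to 126 ± 1.54 FPKM (limma adjusted p = 0.0115), and FAS, a death receptor, was called at -0.22 (limma adjusted p = 0.0432). The count of lower genes was 3 without shYB1 replicate 1, without shYB1 replicate 2 or without vector replicate 3: TNF then missed at limma adjusted p = 0.0586, 0.0508 and 0.0503, and FAS missed without any 1 library, at 0.0652 to 0.114.

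**Figure D4:**
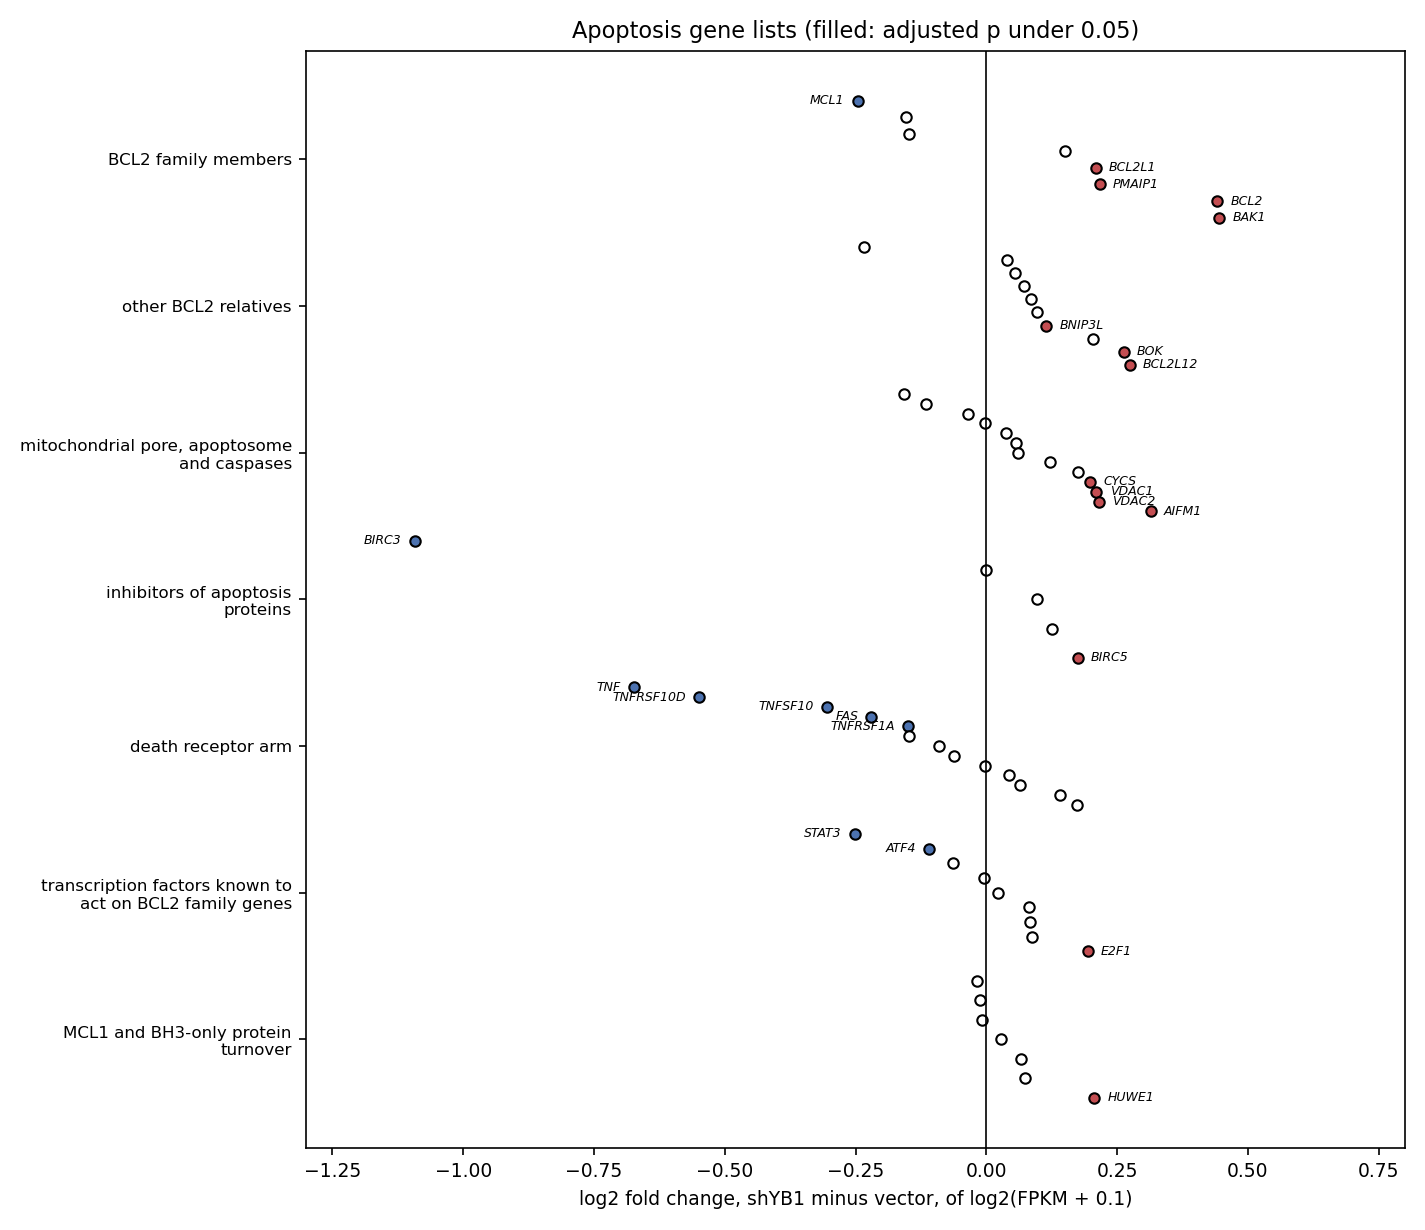
Log2 fold change of each tested gene, shYB1 minus vector, of log2(FPKM + 0.1), for the members and 6 lists of apoptosis genes; each point is a gene, filled where the adjusted p was under 0.05, blue for lower and red for higher, and spread vertically for legibility. BIRC3, at -1.09, lies farthest from 0, and the called genes of the death receptor arm all lie to the left.

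Among 9 tested of 10 transcription factors known to act on the family, 2 were lower and 1 higher, beside 6.93% and 18.7% of all genes, with a median of 0.02. With median-of-ratios scaling the split was 3 lower and 0 higher, beside 12.0% and 11.4% of all genes. STAT3, an activator of MCL1 and BCL2L1 transcription, fell from 22.8 ± 1.35 to 19.1 ± 0.146 FPKM (limma adjusted p = 0.00390) and was called in all 15 alternatives. ATF4, the stress-response factor that can induce PMAIP1, was called at a log2 fold change of -0.11 (limma adjusted p = 0.0322), and E2F1, the cell-cycle factor, at 0.19 (limma adjusted p = 0.0423). These last calls were not stable. ATF4 missed without any 1 library except shYB1 replicate 3, at limma adjusted p = 0.0568 to 0.118, and E2F1 missed without any 1 library except shYB1 replicate 2, at 0.0762 to 0.139.

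Of the genes for the turnover of MCL1 and BH3-only proteins, all 7 were tested, 1 was higher and 0 lower, beside 18.7% and 6.93% of all genes (1 and 0 at an unadjusted limma p under 0.05), and the median was 0.03. HUWE1, a ubiquitin ligase for MCL1, rose from 14.7 ± 0.639 to 17.0 ± 0.836 FPKM (limma adjusted p = 0.0152); it missed the call without shYB1 replicate 1 (limma adjusted p = 0.0606), without vector replicate 1 (0.0581) and with quantile normalization (0.0539). USP9X, which removes ubiquitin from MCL1, stood at 9.99 and 10.5 FPKM (limma adjusted p = 0.272).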

How the data were processed

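Total RNA was extracted with Trizol from 786-O cells with a stable sh-YB1 or scrambled lentiviral vector and sequenced as standard Illumina libraries, 3 per group. The authors deposited FPKM per gene and library, with annotation terms for each gene; the processing notes of the submitters name Trimmomatic, HISAT2, HTSeq, Cufflinks, DESeq and GRCh38 without versions or roles, and whether strand was used is not given in the sources used here. FPKM corrects for the mapped fragments of a library and the length of a gene. It keeps no count, so depth is known only in relative terms, from the spacing of values under 0.08 FPKM. All 6 value columns were used and 0 were left out.

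Values were taken as log2(FPKM + 0.1) for genes whose mean reached 1 FPKM, and groups were compared with limma 3.58.1 (lmFit, and eBayes with trend and robust prior) in R 4.3.3, two-sided, with Benjamini-Hochberg adjustment over 10439 genes and no replicate term. The code was checked on data with known changes. Alternatives were other pseudocounts, filters, scalings and variance priors, a replicate block, and leaving out each library. Other steps used Python 3.11.15, NumPy 2.4.6, pandas 2.3.3 and SciPy 1.17.1, and figures matplotlib 3.10.9. Shared words of 50 bases were counted over GENCODE transcripts of GRCh38.

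The members and lists were chosen with earlier results of these data known. All 10 members and YBX1 were named, and from each list the called genes without overlap, at most the 4 largest in each direction, plus the gene with the highest mean. BAX, BBC3, BCL2L2, BIRC2, TNFRSF10B, USP9X, VDAC3, DIABLO, HTRA2 and ENDOG were named after their values were seen. The series text speaks of several shRNAs, whereas the labels give a single knockdown group, which was used. Sequences came from RefSeq.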

Additional observations from a re-analysis of the deposited data

How the results depend on the processing

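Each of the 5 called members kept its direction and its call under every alternative in which it was tested. The limma adjusted p ranged from 0.000181 to 0.0116 for MCL1, 0.000587 to 0.0181 for BCL2L1, 0.010 to 0.0465 for BCL2, 0.000904 to 0.0161 for BAK1 and 0.000681 to 0.0175 for PMAIP1; a filter at 5 FPKM left BCL2 untested. Leaving out 1 library at a time gave 1 to 2 lower members (BID joined without vector replicate 2) and 4 to 5 higher (BAD joined without vector replicate 3), and in the pathway lists 5 to 7 lower and 7 to 9 higher genes. Over all genes, median-of-ratios rescaling gave 1253 lower and 1193 higher calls and quantile normalization 1184 and 1267, against 723 and 1956 with FPKM as deposited. Replicate numbers did not pair the samples: the deviations of same-numbered libraries correlated at -0.17, -0.06 and -0.01, and 0 of 6 libraries correlated best with their own number. With a replicate block 1 member was lower and 4 higher, and over all genes 760 and 2074. The 9 alternatives for BIK and BCL2A1 without a filter were chosen after seeing the data and left both calls as they were; the rescaled sums and the MCL1 ratios over BID, BAD, BIK and BCL2L11 were also added after seeing the data. Depth limits BIK and BCL2A1, whose fragment counts rest on taking the lowest library as 1 fragment.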
